A study of Homo sapiens with 9 samples.

Results

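Interferon-stimulated genes were followed in PC3, a cell line grown from a bone metastasis of human prostate cancer. The cells had been cultured with mouse osteoblasts or alone. The set held 48 gene symbols. A probe set was named for 47 of them, and the probe set with the highest mean stood for its gene. Of these 47 genes, 44 passed the filter on low values and were tested, among 14863 genes tested in all; RSAD2, TRIM22 and XAF1 lay below the filter, and STAT2 was not analysed here. Total RNA was hybridized to 9 Affymetrix human arrays after 48 h of culture, and the study asked how osteoblasts and the Wnt inhibitors SOST and DKK1 alter the PC3 cells.

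The arrays fell into 4 groups, whose samples the labels call biological replicates. PC3 cells were cultured with osteoblasts from Sost knockout mice and no added protein (OB SostKO, 2 arrays), with wild type osteoblasts and 100 ng/ml recombinant human DKK1 (OB WT + rhDKK1, 2 arrays), with wild type osteoblasts and 100 ng/ml recombinant human SOST (OB WT + rhSOST, 3 arrays), or without osteoblasts or added protein (untreated PC3, 2 arrays). The osteoblasts were primary cells of newborn mouse calvaria. In the co-cultures whose layout the study's methods give, culture inserts kept them apart from the PC3 cells. No array here held PC3 cells with wild type osteoblasts alone, and the effects of the osteoblasts and of the added protein cannot be told apart. All PC3 cells are of 1 cell line. Each of the comparisons with untreated PC3 rests on the same 2 untreated arrays.

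Interferons are secreted cytokines that warn cells of infection. Type I and type III interferons act through JAK kinases and IRF9 on the interferon-stimulated response element (ISRE) of their target genes, whereas interferon gamma acts chiefly on the gamma-activated sequence (GAS). The genes they switch on encode transcription factors that widen the response, sensors of viral RNA, effectors that block viral replication, the ubiquitin-like modifier ISG15 with its enzymes, guanylate-binding proteins and the machinery that presents peptides on class I molecules; many of them also keep a basal level in unstimulated tumor cells.

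The promoters of 5 members are printed to show the response elements that their regulation is known for: IRF1, GBP1 and TAP1, which were lower in the co-cultures, HERC5, which was higher, and IFIT1, a member that was not called. Each stretch runs 5′ to 3′ on the strand of the gene over 100 bases, from 150 to 51 bases before the RefSeq start in GRCh38.p14. IRF1 lies on the minus strand at chr5:132490824-132490923, GBP1 on the minus strand at chr1:89065259-89065358, TAP1 on the minus strand at chr6:32853755-32853854, HERC5 on the plus strand at chr4:88456969-88457068 and IFIT1 on the plus strand at chr10:89392473-89392572. Capitals mark a GAS-like match, TTCNNNGAA, in IRF1 and ISRE-like matches, TTTC on both sides of any 2 bases or its reverse complement with GAAA, in the others.
IRF1: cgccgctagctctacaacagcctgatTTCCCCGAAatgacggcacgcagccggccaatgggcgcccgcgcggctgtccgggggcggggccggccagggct
GBP1: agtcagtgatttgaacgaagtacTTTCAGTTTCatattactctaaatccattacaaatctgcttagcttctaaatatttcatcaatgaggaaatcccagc
TAP1: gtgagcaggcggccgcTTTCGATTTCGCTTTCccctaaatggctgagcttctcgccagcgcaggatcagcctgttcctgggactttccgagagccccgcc
HERC5: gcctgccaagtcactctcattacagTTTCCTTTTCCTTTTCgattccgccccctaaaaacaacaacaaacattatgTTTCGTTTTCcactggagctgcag
IFIT1: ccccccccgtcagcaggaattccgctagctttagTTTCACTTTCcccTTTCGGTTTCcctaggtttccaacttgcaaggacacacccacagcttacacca

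The run of capitals in TAP1 and the longer run in HERC5 each hold 2 overlapping matches. IRF1 shows no ISRE-like match in this stretch, and HERC5, which moved the other way from GBP1 and TAP1, carries the same kind of match as they do. A match to these letters is a description of the sequence and was not tested for binding.

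The whole arrays were alike in their medians, which lay between 5.45 and 5.52 on the log2 scale. The poly-A labelling controls averaged 6.38 to 7.22 in the co-cultures and 10.99 to 11.66 in untreated PC3. The hybridization controls averaged 10.32 to 10.60 in the co-cultures and 10.66 to 11.35 in untreated PC3. The 3′ probe set of ACTB exceeded its 5′ probe set by 0.99 to 2.06 in the co-cultures and 0.50 to 0.88 in untreated PC3. The values of the poly-A controls, the hybridization controls and ACTB moved with the groups, whereas the medians overlapped. The 3′ to 5′ difference for GAPDH overlapped, at 0.12 to 0.42 in the co-cultures and 0.15 to 0.24 in untreated PC3. What moved the poly-A, hybridization and ACTB values cannot be told apart from the culture in the comparisons with untreated PC3. Its part in those comparisons was not tested. Array 3 of OB WT + rhSOST stood apart, with 90 genes over 1 log2 unit from the median of the other arrays, while the other co-culture arrays had 0 to 3 such genes and untreated arrays 1 and 2 had 55 and 43. Untreated array 1 had the lowest median correlation with the other arrays (0.99201), followed by array 3 of OB WT + rhSOST (0.99358). All 6 epithelial markers examined passed the filter, and 1 of them, the keratin KRT7, fell in the averaged comparison (log2 fold change -0.61, limma adjusted p = 0.0103). Of 12 osteoblast and fibroblast markers 7 were tested, their summed linear signal was 1076 to 1703 in the co-cultures and 1206 to 1318 in untreated PC3, and COL3A1 alone was higher (log2 fold change 0.33, limma adjusted p = 0.0184), while SP7, COL1A2, POSTN and LUM lay below the filter; the part of these markers in the results was not tested. Of 8 leukocyte markers 3 were tested and none was called, PTPRC, CD14, LYZ and MS4A1 lay below the filter, and the summed signal was 170 to 184 in the co-cultures and 183 to 190 in untreated PC3.

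Most interferon-stimulated genes stayed within a narrow range, and a minority was lower in the co-cultures. When the 3 co-cultures were averaged and set against untreated PC3, 9 of the 44 members fell (GBP1, HLA-B, IFI27, IRF1, OAS1, OASL, PSMB9, SAMD9 and TAP1) and HERC5 rose at an adjusted p under 0.05 (limma with Benjamini-Hochberg adjustment over all genes). The 9 lower members are 20.5% of those tested, against 4.03% of all genes, and the single higher member is 2.27%, against 6.55% of all genes. The median log2 fold change was -0.08 over the members and -0.0039 over all genes, with 27 members below and 17 above zero. Lower signal can reflect less RNA per cell or fewer cells of a kind that expresses the gene, which cannot be told apart in bulk RNA.

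Each co-culture on its own gave fewer calls, with IRF1 and OASL lower and HERC5 higher in all 3. With OB SostKO, 2 members fell (IRF1 and OASL) and 1 rose, against 1.65% and 2.07% of all genes. With OB WT + rhDKK1, 4 members fell (GBP1, IRF1, OASL and TAP1) and 1 rose, against 1.76% and 2.5% of all genes. With OB WT + rhSOST, 5 members fell (the same 4 and IFI27) and 1 rose, against 2.1% and 4.87% of all genes. The median log2 fold change of the members was -0.08 under OB SostKO, -0.09 under OB WT + rhDKK1 and -0.04 under OB WT + rhSOST, and that of all genes was -0.01, -0.01 and 0.02 in the same order. As these comparisons share the untreated arrays, the recurrence of a gene across them is not independent evidence.

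The count of lower members depended on the untreated arrays. Without untreated array 1, IRF1 was the only lower member left in the averaged comparison and none was left in any single co-culture, whereas 0.693% of all genes were then lower in the averaged comparison. Without untreated array 2, IRF1, OASL and TAP1 remained lower in it, against 1.52% of all genes. Leaving out OB WT + rhDKK1 array 1, OB WT + rhSOST array 1 or OB WT + rhSOST array 2 left the same 4 members each time (GBP1, IRF1, OASL and TAP1), against 2.27%, 2.9% and 2.6% of all genes in those fits, and without OB WT + rhDKK1 array 2 there were 5, against 2.36%. The share of all genes called lower thus fell in these fits as well. Without array 3 of OB WT + rhSOST, the array that stood apart, 10 members were lower in the averaged comparison, against 5.32% of all genes in that fit. There were then 6 lower under OB SostKO, 6 under OB WT + rhDKK1 and 7 under OB WT + rhSOST, against 2.29%, 2.26% and 2.2% of all genes. The call of HERC5 under OB WT + rhSOST held without any of the 9 arrays, with no filter, after cyclic loess, with only the groups compared, with array quality weights and with a replicate block (limma adjusted p 0.00222 to 0.0496), but not under an added fold of at least 2 or after adjustment of the methods' own tests.

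**Figure D1:**
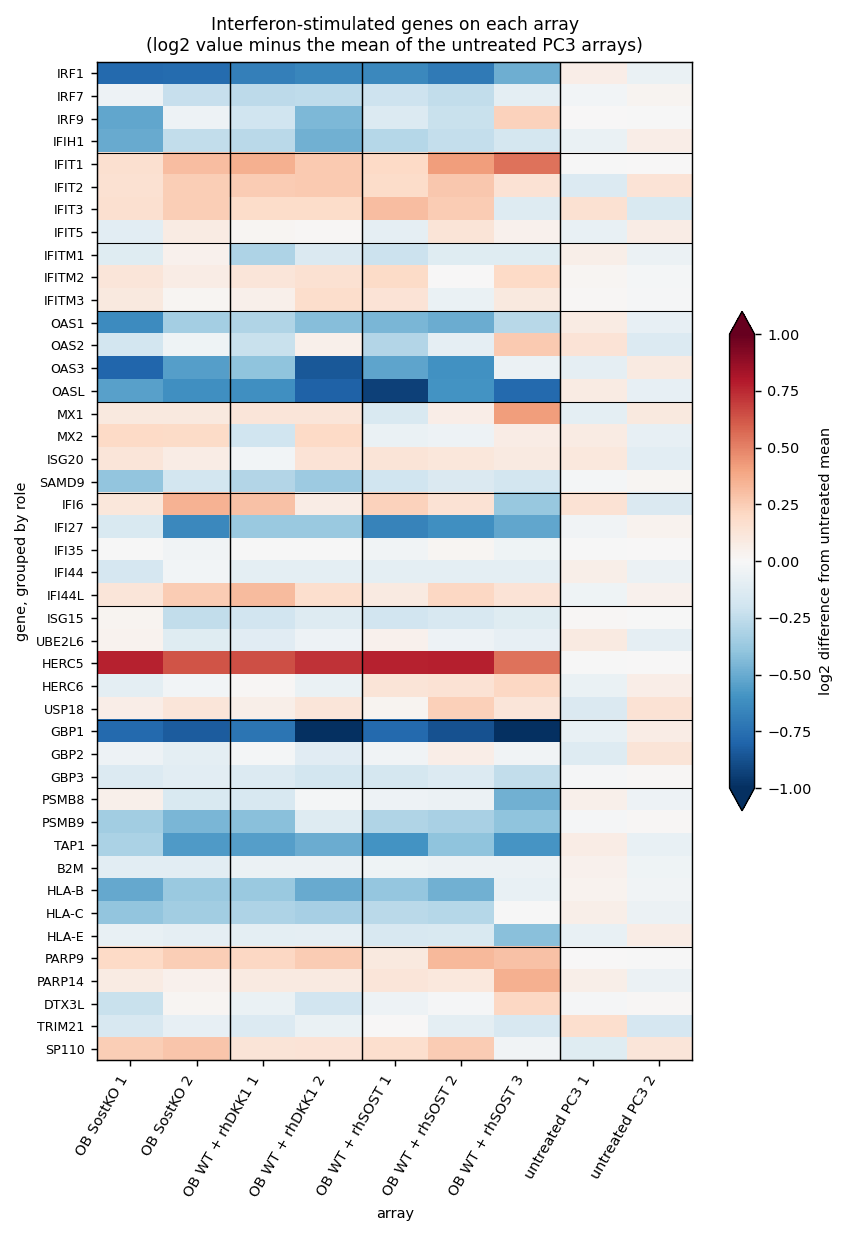
Log2 value of each of the 44 tested interferon-stimulated genes (rows, grouped by role) on each of the 9 arrays (columns, grouped by culture), as the difference from the mean of the untreated PC3 arrays. Blue is lower and red is higher, with colors saturating at a difference of 1 log2 unit; IRF1, OASL, GBP1 and TAP1 are blue on all 7 co-culture arrays, HERC5 is red on all 7, and most other rows are pale.

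The position of single arrays was also described without a test, from the same 9 arrays and so not independently of the calls. All 7 co-culture arrays lay below both untreated arrays for 12 of the 44 members (27.3%, against 11.3% of all genes) and above both for 5 (11.4%, against 15.4% of all genes). The 12 were the 9 lower members together with IFIH1, IRF7 and GBP3. The 5 were HERC5, IFIT1, IFIT2, IFI44L and PARP9.

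Among the transcription factors and sensors, 1 of 4 tested members fell and all 4 had negative averaged log2 fold changes, with a median of -0.27. IRF1 encodes a transcription factor that is induced strongly by interferon gamma and drives class I presentation genes. Its log2 values were 6.93 and 6.94 with OB SostKO, 7.03 and 7.06 with OB WT + rhDKK1, and 7.07, 7.01 and 7.23 with OB WT + rhSOST, against 7.78 and 7.65 in untreated PC3. Every co-culture array was below both untreated arrays, and the gap to the lower untreated array was wider than the spread within any culture. The log2 fold change was -0.78 ± 0.09 under OB SostKO, -0.67 ± 0.09 under OB WT + rhDKK1 and -0.61 ± 0.08 under OB WT + rhSOST (SE), with limma adjusted p of 0.00555, 0.00825 and 0.00540. The averaged fold change was -0.69 on the log2 scale, which is 1.61-fold lower, with an adjusted p of 0.00160 that remained under 0.05 without any of the 9 arrays (0.00148 to 0.0322). A second probe set of IRF1, 238725_at, moved less, at 6.47, 6.55, 6.37, 6.29, 6.54, 6.48 and 6.26 on the co-culture arrays, against 6.72 and 6.73 in untreated PC3. It too lay below both untreated arrays on every co-culture array, but its averaged log2 fold change of -0.31 did not pass the threshold (limma adjusted p over probe sets 0.0660).

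IFIH1 encodes MDA5, a cytoplasmic sensor of long double-stranded RNA. Its log2 values were 7.30 and 7.56 with OB SostKO, 7.53 and 7.32 with OB WT + rhDKK1, and 7.51, 7.56 and 7.63 with OB WT + rhSOST, against 7.73 and 7.87 in untreated PC3. The co-culture arrays were all lower than the untreated arrays, though the averaged log2 fold change of -0.33 missed the threshold (limma adjusted p = 0.0525). IRF7, the factor that amplifies type I interferon production, lay at 8.22 to 8.43 in the co-cultures and 8.45 to 8.51 in untreated PC3, with an averaged log2 fold change of -0.19 (limma adjusted p = 0.117). IRF9, the DNA-binding subunit of the complex that reads the ISRE, overlapped between the groups at 7.69 to 8.44 in the co-cultures and 8.20 to 8.21 in untreated PC3.

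The OAS family, enzymes that make an oligoadenylate second messenger on contact with double-stranded RNA, was the role group with the lowest median, -0.49, and 2 of its 4 members fell. OASL encodes a relative that lacks the synthase activity and aids RNA sensing by RIG-I. OASL had log2 values of 6.75 and 6.68 with OB SostKO, 6.67 and 6.48 with OB WT + rhDKK1, and 6.35, 6.69 and 6.51 with OB WT + rhSOST, against 7.37 and 7.21 in untreated PC3. No co-culture array reached an untreated array. The log2 fold change was -0.58 under OB SostKO, -0.71 under OB WT + rhDKK1 and -0.77 under OB WT + rhSOST (limma adjusted p 0.0385, 0.0190 and 0.00690), and -0.69 when averaged (limma adjusted p = 0.00470). Leaving out untreated array 1 ended the averaged call (limma adjusted p = 0.0695), and leaving out any other array did not.

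OAS1, the shortest synthase of the family, had log2 values of 6.88 and 7.17 with OB SostKO, 7.21 and 7.08 with OB WT + rhDKK1, and 7.05, 7.01 and 7.23 with OB WT + rhSOST, against 7.59 and 7.43 in untreated PC3. The groups did not overlap. The averaged log2 fold change was -0.42 (limma adjusted p = 0.0298), and no single co-culture passed. The averaged call held in 3 of the 9 fits that left out an array (OB SostKO array 1 or 2, or OB WT + rhSOST array 3), with a limma adjusted p of up to 0.243 without untreated array 1. OAS3, the longest synthase, spread widely, at 8.67 and 8.92 with OB SostKO, 9.07 and 8.62 with OB WT + rhDKK1, and 8.94, 8.86 and 9.41 with OB WT + rhSOST, against 9.38 and 9.55 in untreated PC3. Its array 3 of OB WT + rhSOST lay between the untreated arrays, and the averaged log2 fold change of -0.57 was not called (limma adjusted p = 0.0611). OAS2 lay at 5.58 to 6.13 in the co-cultures and 5.73 to 6.01 in untreated PC3, with a log2 fold change of -0.08.

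Guanylate-binding proteins are large GTPases that attack vacuoles and membranes of intracellular pathogens, and GBP1 is widely used as a marker of interferon gamma action. GBP1 had the most negative averaged log2 fold change of the 44 members. Its log2 values were 6.76 and 6.71 with OB SostKO, 6.81 and 6.48 with OB WT + rhDKK1, and 6.76, 6.67 and 6.13 with OB WT + rhSOST, against 7.47 and 7.62 in untreated PC3. All co-culture arrays were below the untreated arrays, with array 3 of OB WT + rhSOST the lowest. The log2 fold change was -0.90 under OB WT + rhDKK1 and -1.02 under OB WT + rhSOST (limma adjusted p 0.0435 and 0.0147), and with OB SostKO it was -0.80 and missed the threshold (limma adjusted p = 0.0641). Averaged over the co-cultures it was -0.91, or 1.88-fold lower (limma adjusted p = 0.0110), and the call was lost without untreated array 1 or without untreated array 2 (limma adjusted p 0.0832 and 0.0834).

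GBP1 was read by 2 further probe sets. Probe set 202270_at gave a wider gap, with co-culture arrays at 6.03 to 6.42, against 7.38 and 7.82 in untreated PC3, and its log2 fold changes were -1.38 under OB SostKO, -1.33 under OB WT + rhDKK1 and -1.28 under OB WT + rhSOST (limma adjusted p over probe sets 0.0188, 0.0197 and 0.0109). Probe set 202269_x_at, of a type whose probes can also read related transcripts, had an averaged log2 fold change of -0.94 (limma adjusted p = 0.0233). All 3 probe sets passed in the averaged comparison, as 2.75% of all kept probe sets did in this direction, and the probe set chosen set the size of the fall. GBP2 and GBP3 were not called: GBP2 lay at 6.21 to 6.39 in the co-cultures and 6.20 to 6.45 in untreated PC3, and GBP3 lay at 10.10 to 10.23 in the co-cultures and 10.33 to 10.35 in untreated PC3.

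**Figure D2:**
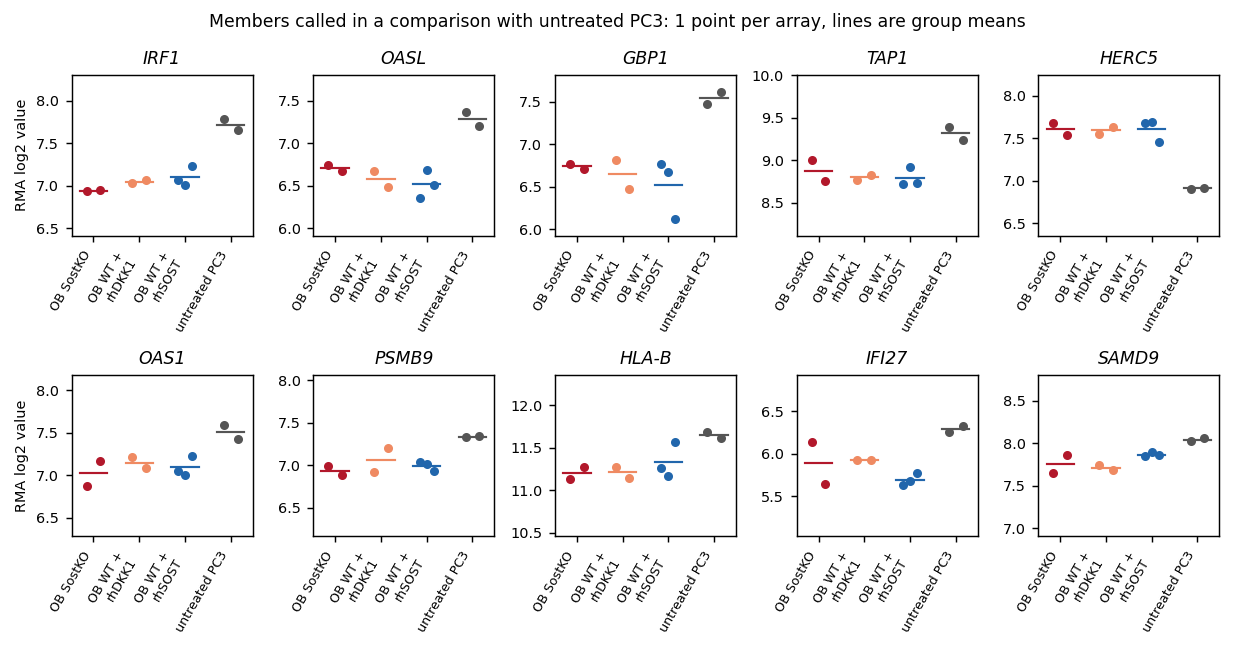
RMA log2 values of the 10 interferon-stimulated genes called in at least 1 comparison with untreated PC3, with 1 point for each array and a line at each group mean; every panel spans the same height of log2 units. IRF1, OASL, GBP1 and TAP1 show the co-culture points well below the untreated points, and HERC5 shows them above at 7.46 to 7.69 against 6.91 and 6.92. For HLA-B, IFI27, PSMB9 and SAMD9 the nearest points of the groups almost meet.

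In antigen presentation, the largest role group tested, 3 of 7 members fell in the averaged comparison (42.9%). That compares with 50% of the OAS family and 4.03% of all genes. All 7 had negative averaged log2 fold changes, with a median of -0.29. TAP1 encodes a subunit of the transporter that carries peptides into the endoplasmic reticulum. TAP1 had log2 values of 9.0 and 8.75 with OB SostKO, 8.77 and 8.83 with OB WT + rhDKK1, and 8.72, 8.91 and 8.73 with OB WT + rhSOST, against 9.40 and 9.24 in untreated PC3. The groups were apart on every array. The log2 fold change was -0.44 under OB SostKO (limma adjusted p = 0.0650), -0.52 under OB WT + rhDKK1 (0.0374) and -0.53 under OB WT + rhSOST (0.0191), and -0.50 when averaged (0.0115), a call that was lost without untreated array 1 (0.127). PSMB9 encodes an immunoproteasome subunit, and its start lies 488 bases from that of TAP1 on the opposite strand. PSMB9 had log2 values of 6.99 and 6.88 with OB SostKO, 6.92 and 7.21 with OB WT + rhDKK1, and 7.04, 7.01 and 6.93 with OB WT + rhSOST, against 7.33 and 7.34 in untreated PC3. Its untreated arrays nearly coincided above all co-culture arrays, and its averaged log2 fold change was -0.34 (limma adjusted p = 0.0337). That call held in 3 of the 9 fits that left out an array (OB SostKO array 1, OB WT + rhDKK1 array 2 or OB WT + rhSOST array 3) and had a limma adjusted p of 0.185 without untreated array 1.

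HLA-B encodes a class I heavy chain. Its log2 values were 11.14 and 11.28 with OB SostKO, 11.28 and 11.14 with OB WT + rhDKK1, and 11.26, 11.17 and 11.57 with OB WT + rhSOST, against 11.68 and 11.61 in untreated PC3. Array 3 of OB WT + rhSOST almost reached the untreated arrays, and the other 6 co-culture arrays stayed clearly below. The averaged log2 fold change was -0.40 (limma adjusted p = 0.0472), a call that held in 1 of the 9 fits that left out an array, the one without array 3 of OB WT + rhSOST (0.00985), and was lost in the other 8 (up to 0.271 without untreated array 1). HLA-C, another class I heavy chain, had log2 values of 11.24 and 11.29 with OB SostKO, 11.32 and 11.30 with OB WT + rhDKK1, and 11.36, 11.35 and 11.63 with OB WT + rhSOST, against 11.69 and 11.57 in untreated PC3. Array 3 of OB WT + rhSOST lay between the untreated arrays, and the averaged log2 fold change was -0.29 (limma adjusted p = 0.0615).

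The class I genes are near copies of each other, and all 7 kept probe sets of HLA-B and HLA-C are of the type that can read related transcripts, so their values are not separate measurements of separate genes. The 3 probe sets of HLA-B had averaged log2 fold changes of -0.40, -0.47 and -0.43 (limma adjusted p over probe sets 0.0701, 0.0340 and 0.0336). The 4 probe sets of HLA-C had -0.29, -0.41, -0.42 and -0.41 (0.0871, 0.0446, 0.0549 and 0.0186). B2M, the light chain that all class I molecules share, had log2 values of 13.39 and 13.39 with OB SostKO, 13.44 and 13.44 with OB WT + rhDKK1, and 13.46, 13.44 and 13.44 with OB WT + rhSOST, against 13.55 and 13.46 in untreated PC3. Its groups met at the lower untreated array, and the averaged log2 fold change was -0.07 (limma adjusted p = 0.429). PSMB8, the partner subunit of PSMB9, and HLA-E, a ligand of natural killer cell receptors, overlapped between the groups and had averaged log2 fold changes of -0.11 and -0.14.

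**Figure D3:**
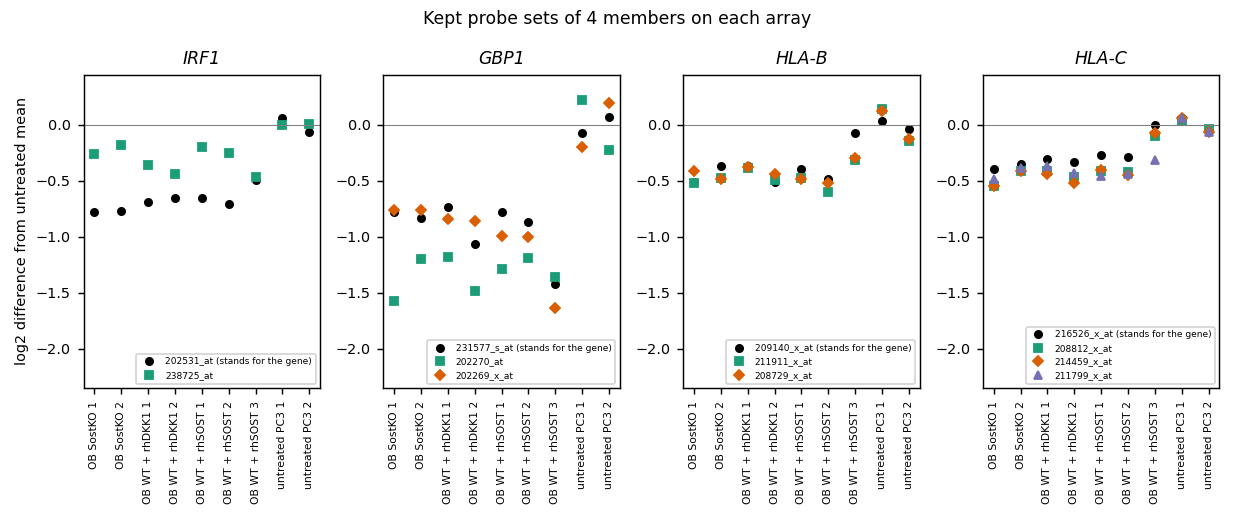
Log2 difference from the untreated mean for each kept probe set of IRF1, GBP1, HLA-B and HLA-C on the 9 arrays, with 1 symbol for each probe set. The symbols of HLA-B and of HLA-C lie close together on most arrays and are nearer zero on array 3 of OB WT + rhSOST, whereas the probe sets of IRF1 and of GBP1 differ from each other in the depth of the fall.

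IFI27 and SAMD9 completed the lower members. IFI27 encodes a small mitochondrial membrane protein and is among the genes most responsive to type I interferon in blood. IFI27 had log2 values of 6.14 and 5.65 with OB SostKO, 5.92 and 5.92 with OB WT + rhDKK1, and 5.63, 5.68 and 5.78 with OB WT + rhSOST, against 6.26 and 6.33 in untreated PC3. The first OB SostKO array came close to the untreated arrays while the second was among the lowest. The log2 fold change was -0.60 with OB WT + rhSOST (limma adjusted p = 0.0297), and with OB SostKO and OB WT + rhDKK1 it was -0.40 and -0.37 (0.159 and 0.178). The averaged value was -0.46 (limma adjusted p = 0.0368), a call that held in the 3 of 9 fits without OB SostKO array 1, OB SostKO array 2 or OB WT + rhSOST array 3, with an adjusted p of 0.177 without untreated array 1. SAMD9 encodes a restriction factor of poxviruses and was the smallest of the falls. Its log2 values were 7.65 and 7.86 with OB SostKO, 7.75 and 7.68 with OB WT + rhDKK1, and 7.85, 7.90 and 7.86 with OB WT + rhSOST, against 8.02 and 8.06 in untreated PC3. The averaged log2 fold change of -0.26 (limma adjusted p = 0.0435) held in 2 of those 9 fits, without OB SostKO array 1 or 2, and had an adjusted p of 0.190 without untreated array 1.

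HERC5, the ligase that attaches ISG15 to newly made proteins in human cells, went the other way from the lower members. HERC5 had log2 values of 7.68 and 7.54 with OB SostKO, 7.56 and 7.64 with OB WT + rhDKK1, and 7.68, 7.69 and 7.46 with OB WT + rhSOST, against 6.91 and 6.92 in untreated PC3. The lowest co-culture array stood well above both untreated arrays, and the 3 co-cultures had nearly equal means. The log2 fold change was 0.70 under OB SostKO, 0.68 under OB WT + rhDKK1 and 0.70 under OB WT + rhSOST (limma adjusted p 0.0106, 0.0103 and 0.00470). With only the groups compared in the fit, the calls under OB SostKO and OB WT + rhDKK1 were lost. Some fits that left out an array also lost them. Over the alternative fits their log2 fold changes lay at 0.63 to 0.77 and 0.64 to 0.72. The averaged value was 0.69, or 1.62-fold higher (limma adjusted p = 0.00203), and the call remained without any of the 9 arrays (0.00154 to 0.0330).

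No other gene of the ISG15 system was called. ISG15, the modifier itself, had log2 values of 11.72 and 11.45 with OB SostKO, 11.50 and 11.57 with OB WT + rhDKK1, and 11.51, 11.54 and 11.57 with OB WT + rhSOST, against 11.70 and 11.69 in untreated PC3. The first OB SostKO array was the highest of all 9 and the other 6 co-culture arrays were below untreated PC3, with an averaged log2 fold change of -0.14 (limma adjusted p = 0.270). UBE2L6, the conjugating enzyme, USP18, the protease that removes ISG15, and HERC6, the ligase of this role in mice, had averaged log2 fold changes of -0.05, 0.10 and 0.03 with overlapping groups and were not called.

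The IFIT proteins, which bind foreign RNA caps and ends, gave no call, although all 4 averaged log2 fold changes were above zero, from 0.01 to 0.31. That direction depended on the probe set that stood for the gene. A second kept probe set was below zero for IFIT3 and IFIT5 (-0.11 and -0.07) and above zero for IFIT2 (0.21). IFIT1 lay at 8.27 to 8.66 in the co-cultures and 8.11 to 8.12 in untreated PC3, with an averaged log2 fold change of 0.31 (limma adjusted p = 0.0688), and IFIT2 lay barely apart, at 8.40 to 8.53 in the co-cultures and 8.12 to 8.40 in untreated PC3. Without array 1 of OB WT + rhSOST, IFIT1 and PARP9 joined HERC5 among the called members of the averaged comparison. IFIT3 and IFIT5 overlapped between the groups. The IFITM proteins, which hinder fusion of viruses with endosomes, had averaged log2 fold changes from -0.14 to 0.12. IFITM3, the best studied of them, had log2 values of 11.50 and 11.43 with OB SostKO, 11.46 and 11.58 with OB WT + rhDKK1, and 11.54, 11.34 and 11.50 with OB WT + rhSOST, against 11.41 and 11.40 in untreated PC3. The co-culture arrays lay on both sides of the untreated arrays.

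Among the further antiviral effectors, the dynamin-like GTPases MX1 and MX2 and the exonuclease ISG20 overlapped between the groups, with averaged log2 fold changes of 0.11, 0.06 and 0.09. RSAD2, which makes a chain-terminating nucleotide, stayed below the filter at 4.56 and 4.60 with OB SostKO, 4.40 and 4.39 with OB WT + rhDKK1, and 4.16, 4.40 and 4.53 with OB WT + rhSOST, against 3.91 and 4.51 in untreated PC3. XAF1, a proapoptotic antagonist of XIAP, did so at 3.38 and 3.28 with OB SostKO, 3.32 and 3.44 with OB WT + rhDKK1, and 3.34, 3.22 and 3.47 with OB WT + rhSOST, against 3.87 and 3.34 in untreated PC3. The 40th percentile of the arrays, which set the filter, lay at 4.82 to 4.92, and both genes stayed under it on all 9 arrays. TRIM22, a ubiquitin ligase, lay at 2.63 to 2.87 in the co-cultures and 2.59 to 2.78 in untreated PC3.

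The other IFI genes and the nuclear regulators were not called. IFI44L lay above untreated PC3 on every co-culture array, at 7.55 to 7.77 in the co-cultures against 7.41 to 7.50 in untreated PC3, with an averaged log2 fold change of 0.19 (limma adjusted p = 0.122). IFI6, a regulator of mitochondrial apoptosis, IFI35 and IFI44 had averaged log2 fold changes of 0.14, -0.01 and -0.09. PARP9, which works with the ubiquitin ligase DTX3L in the interferon response and DNA repair, lay at 8.09 to 8.31 in the co-cultures and 7.98 to 7.99 in untreated PC3 (averaged log2 fold change 0.23, limma adjusted p = 0.0771). DTX3L itself was at -0.06, and PARP14, the antibody receptor TRIM21 and the nuclear body protein SP110 were at 0.12, -0.10 and 0.18.

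**Figure D4:**
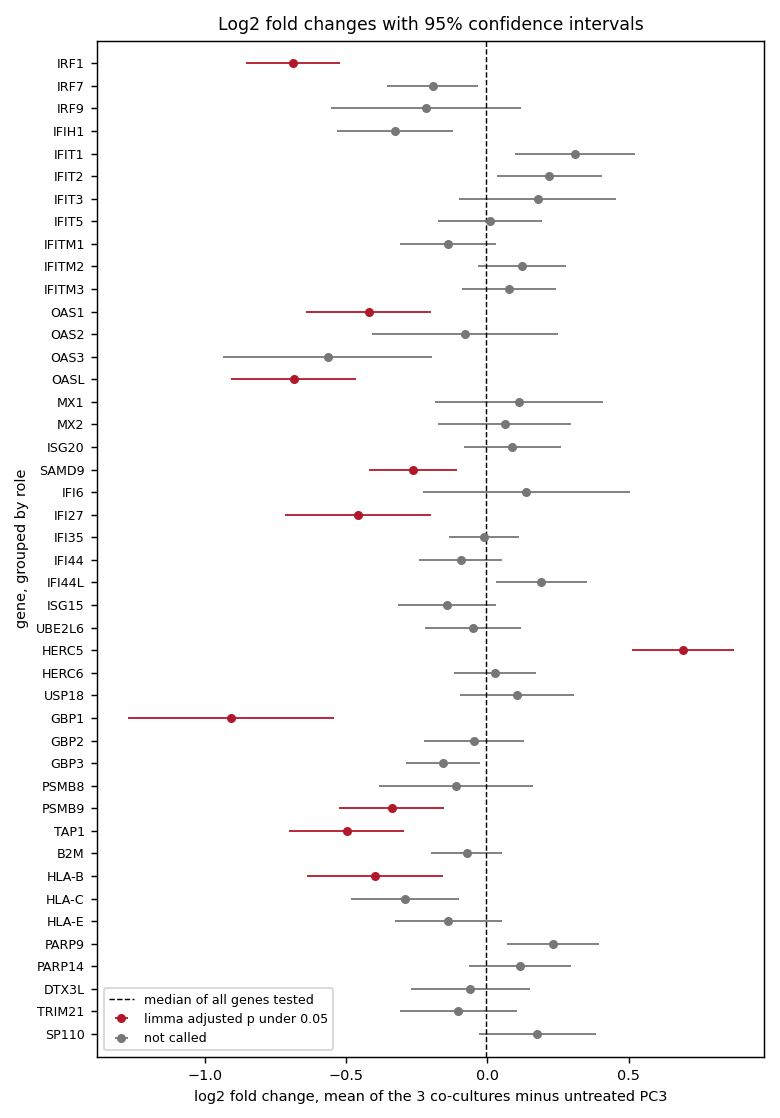
Averaged log2 fold change of the 3 co-cultures against untreated PC3 for each of the 44 tested members (points), with the 95% confidence interval from limma (bars), members ordered by role, called members in red and the others in gray. The dashed line marks the median of all genes tested; the intervals of the 9 lower members lie left of it, that of HERC5 lies right of it, and all IFIT points lie right of it.

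The co-cultures were also set directly against each other, which asks whether Sost deficiency, DKK1 and SOST left different levels of these genes. No member was called in any of the 3 direct comparisons (limma with Benjamini-Hochberg adjustment), nor was any of the 14863 genes, that is 0% in each. At an unadjusted p under 0.05, limma gave 1 member for OB SostKO against OB WT + rhSOST and 1 for OB WT + rhDKK1 against OB WT + rhSOST, HERC6 in both, and 0 for OB SostKO against OB WT + rhDKK1, against 4.08%, 2.57% and 0.828% of all genes. The Tukey comparisons and the paired test that the study's methods name gave 0 members after adjustment. The paired test used only arrays 1 and 2 of each group, and with so few differences its 0 decides nothing. The differences between co-cultures reached at most 0.28, 0.28 and 0.20 on the log2 scale. The 95% confidence intervals of all 44 members stayed within 2-fold in each direct comparison, with the farthest bounds at 0.70, 0.66 and 0.55. Differences within these intervals were not detectable with these arrays.

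HERC6 had log2 values of 7.09 and 7.16 with OB SostKO and 7.20 and 7.12 with OB WT + rhDKK1, against 7.32, 7.33 and 7.39 with OB WT + rhSOST. Every array of OB WT + rhSOST was above the arrays of the other co-cultures. The log2 difference from OB WT + rhSOST was -0.22 with OB SostKO (95% interval -0.38 to -0.06) and -0.18 with OB WT + rhDKK1 (-0.35 to -0.02), with limma adjusted p of 0.800 and 1.0.

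A wider list of 91 genes of the same pathway was examined, of which 67 were tested, and 3 rose and 5 fell in the averaged comparison, which is 4.48% and 7.46% of those tested against 6.55% and 4.03% of all genes. Of 9 interferon genes listed, 8 had a probe set and only IFNL1, a type III interferon, passed the filter, at 4.62 to 4.96 in the co-cultures and 4.87 to 5.20 in untreated PC3. IFNB1 lay at 3.59 to 3.85 in the co-cultures and 3.85 to 4.05 in untreated PC3, and IFNG lay at 3.96 to 4.30 in the co-cultures and 4.13 to 4.15 in untreated PC3, all below the filter. All 6 receptor chains were tested and none was called. The interferon gamma receptor chains IFNGR1 and IFNGR2 lay below untreated PC3 on every co-culture array, with averaged log2 fold changes of -0.28 and -0.27 (limma adjusted p 0.100 and 0.0601), and none of 5 inhibitors of the pathway was called.

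Among the receptor kinases and transducers, JAK2, a kinase of the interferon gamma receptor, rose. Its log2 values were 6.86 and 7.42 with OB SostKO, 7.39 and 7.24 with OB WT + rhDKK1, and 7.02, 7.29 and 7.37 with OB WT + rhSOST, against 6.68 and 6.58 in untreated PC3. The averaged log2 fold change was 0.60 (limma adjusted p = 0.0339), which held in 4 of the 9 fits that left out an array and was 0.168 without untreated array 1. The DNA sensor IFI16 and the nucleotide kinase CMPK2 were higher by 0.29 and 0.41 (limma adjusted p 0.0372 and 0.0176), calls that held in 3 and 7 of those 9 fits and were lost without untreated array 1 (0.186 and 0.176).

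The 5 further genes that fell included ICAM1, an adhesion molecule of leukocyte contact that interferon gamma and NF-kB induce. ICAM1 had log2 values of 7.32 and 7.58 with OB SostKO, 7.58 and 7.43 with OB WT + rhDKK1, and 7.58, 7.49 and 7.68 with OB WT + rhSOST, against 8.19 and 8.15 in untreated PC3. The groups were wide apart, and the averaged log2 fold change was -0.66 (limma adjusted p = 0.00355), lost only without untreated array 1, and then narrowly (0.0514). The secreted glycoprotein LGALS3BP, the class I molecule HLA-F, the proteasome activator PSME1 and the inflammatory caspase CASP4 had averaged log2 fold changes of -0.72, -0.44, -0.28 and -0.26 (limma adjusted p 0.0465, 0.0368, 0.0287 and 0.0234). These calls held in 2, 2, 4 and 4 of the 9 fits that left out an array, and none held without untreated array 1 (0.0948 to 0.295). The value of HLA-F moved with a single array, with an averaged log2 fold change of -0.22 without untreated array 1 and -0.66 without untreated array 2.

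Promoter windows of 250 bases before to 50 bases after the RefSeq start were found for 38 of the 48 members; USP18, HLA-E, TRIM22, OAS2, OASL, IFITM2, GBP2, IFIT2, IRF7 and MX2 had none. The ISRE-like letters, TTTC and TTTC with any 2 bases between them on either strand, occurred in 23 of the 38 windows (60.5%), against 3.66% of 27305 windows of all genes, and TTCNNNGAA, which reads the same on both strands, in 8 (21.1%), against 7.89%. Matches could overlap each other. Of the 8 lower members with a window, 4 held the ISRE-like letters (GBP1, IFI27, SAMD9 and TAP1). The GAS-like letters were in 3 (IFI27, IRF1 and OAS1), while HLA-B and PSMB9 held neither kind in their windows. The ISRE-like matches of TAP1 lie between the starts of TAP1 and PSMB9, beyond the window of PSMB9. Of the 26 members not called, 18 held the ISRE-like letters and 5 the GAS-like letters. HERC5, the member that rose, and IFIH1, IFIT5 and IFI6, which were not called, each held 3 ISRE-like matches in the window.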

How the data were processed

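Total RNA of PC3 cells was measured on 9 arrays. The authors deposited log2 values made with RMA, which corrects background, equalizes the arrays and summarizes probe sets; RMA is named in the submitters' processing notes, and its software and version are not given in the sources used here. Precision is limited by how few arrays there are. Groups and replicate numbers came from the labels, 0 columns belonged to other samples, and no 2 arrays held identical values. P-values measure the spread between arrays that the labels call biological replicates.

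From 54675 probe sets 62 controls were removed, and 33970 others passed a filter that asked for the 40th percentile of the array, reached on 2 arrays or more. The platform's annotation gives 28244 of them 1 symbol, 1307 several and 4419 none. Symbols were updated to RefSeq names, and a gene was read from its brightest kept probe set. Group means were fitted with limma 3.58.1 (lmFit, eBayes) in R 4.3.3, with Benjamini-Hochberg adjustment over 14863 genes or over kept probe sets. The procedure was tested on simulated data. Promoter sequences are from RefSeq for GRCh38.p14.

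The members, the other gene lists, the tests and the alternatives were chosen with earlier results of these data known. Values on every array are given for members called in any comparison with untreated PC3, for the 12 with the smallest averaged p, the 3 with the largest range, the 5 with the highest level and 2 below the filter, and further probe sets are named where they differed by over 0.5 in log2 fold change. HERC6, IFIT1, PARP9, IFI44L and the remaining probe sets of HLA-B, HLA-C and GBP1 fall outside that rule and were chosen with their values known. The further probe sets of IFIT2, IFIT3 and IFIT5 do so too. Alternatives were other filters, cyclic loess, other summaries of probe sets, only the groups compared, array quality weights, a replicate block, leaving out each array, other thresholds and the methods' own tests.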

Additional observations from a re-analysis of the deposited data

Results flagged for a closer look

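HERC6 was the only tested interferon-stimulated gene whose arrays all lay on opposite sides of the untreated mean in 2 co-cultures. Against the mean of the untreated PC3 arrays, all 3 arrays of OB WT + rhSOST were higher and both arrays of OB SostKO were lower, and the effects differed by 0.22 on the log2 scale. The untreated arrays were at 7.12 and 7.25, and OB SostKO array 2, at 7.16, lay between them. Neither effect was called, at -0.06 under OB SostKO and 0.16 under OB WT + rhSOST (limma adjusted p 0.701 and 0.225). The direct comparison of OB SostKO with OB WT + rhSOST had an unadjusted p of 0.0146 and an adjusted p of 0.800 (limma), so the difference failed the correction over all genes.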

How the results depend on the processing

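No filter, a 60th percentile filter, cyclic loess and the use of every kept probe set left each count of called members within 1.5 times that of the report. Leaving out each array in turn, the numbers higher and lower ranged from 0 to 1 and 0 to 6 with OB SostKO, 0 to 1 and 0 to 6 with OB WT + rhDKK1, 1 to 2 and 0 to 7 with OB WT + rhSOST, and 1 to 3 and 1 to 10 when averaged, and stayed at 0 in the direct comparisons. With only the groups compared in the fit, 0 members were higher and 0 lower with OB SostKO and with OB WT + rhDKK1. The mean of the kept probe sets gave 4 lower with OB SostKO, and array quality weights gave 1 lower there and 2 higher with OB WT + rhSOST. An added fold of at least 2 left 0 members higher in any comparison and 0 lower, except 1 (GBP1) with OB WT + rhSOST. At an unadjusted p under 0.05, the numbers higher were 3, 5, 3 and 5 and lower 12, 14, 12 and 14 with OB SostKO, OB WT + rhDKK1, OB WT + rhSOST and averaged (10.6%, 11.2%, 15.5% and 15.1% of all genes were higher and 10.1%, 10.1%, 8.09% and 12.1% lower), with 1 member each for OB SostKO and for OB WT + rhDKK1 against OB WT + rhSOST (4.08% and 2.57% of all genes). Unadjusted Tukey comparisons gave 6 lower with OB SostKO (4.16% of all genes) and 1 for OB SostKO against OB WT + rhSOST. The unadjusted paired test, which used only arrays 1 and 2 of each group, gave 2, 1 and 2 in the direct comparisons. After adjustment both tests gave 0 higher and 0 lower with each co-culture. Counts given in this section without a share of all genes are not a result about the members. ISG15 with OB SostKO, at -0.11 and not called, was 0.026 without OB SostKO replicate 2 and -0.25 without replicate 1. Where the cause is not fewer arrays or a stricter threshold, it was not tested.

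Same-numbered arrays did not deviate together throughout (correlations from -0.57 to 0.31, 4 of 12 over 0.1), so the numbers were not taken as pairs. Between groups of 2 arrays, numbers 1 and 2 give the same correlation by construction, so the 12 values are not all separate. The highest, 0.27 and 0.31, were those of OB WT + rhDKK1 with OB WT + rhSOST. The fit with the replicate block gave 2 lower with OB WT + rhDKK1 and 3 lower with OB WT + rhSOST; the third array of OB WT + rhSOST has no partner and adds nothing to that fit.

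For the 14 calls of a member in a single co-culture, the fits without an array, with no filter, with cyclic loess, with only the groups compared, with array weights and with the block gave 196 values, of which 136 kept the call and 60 lost it, with no change of sign. The spread between arrays was estimated from all 4 groups together, while the untreated mean in every comparison with untreated PC3 rests on 2 arrays. Members near the floor of the arrays (RSAD2, TRIM22, XAF1) give no information in either direction.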
